A study of Mus musculus with 13 samples.

Results

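The 5 libraries compared here are the poly(A) RNA libraries of mouse melanoma cell lines titled NLS and LacZ under the 48 h doxycycline label. They are 5 of 13 libraries in the series and were chosen by their titles. The 3 NLS t48 libraries are cell lines 6, 7 and 16, and the 2 LacZ t48 libraries are cell lines 10 and 12, so each library is a different line. The series deals with soluble adenylyl cyclase, the enzyme encoded by Adcy10, placed in different compartments of the cell. Doxycycline, an antibiotic, serves to induce such a construct. The labels of the NLS t48 libraries give nuclear as the compartment. Those of the LacZ t48 libraries also give nuclear, against their titles. LacZ is a bacterial gene commonly used as an inert control insert, and the 2 libraries were kept as LacZ. The comparison asks how lines carrying the 2 constructs differ under the same medium. Construct and cell line cannot be told apart in it, because no line carried both, and the p-values measure the spread between these 5 lines. The same lines under the t0 label, without doxycycline, are set beside the results where they bear on them.

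Soluble adenylyl cyclase makes cyclic AMP (cAMP) from ATP and is activated by bicarbonate and calcium. In the classical pathway cAMP activates protein kinase A, which phosphorylates the transcription factor CREB, and CREB binds a short palindrome in the promoters of early response genes. In melanocytes this pathway is known for raising Mitf and the pigment enzymes.

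Adcy10 (ENSMUSG00000026567, chr1:165485183-165576774 in GRCm38, plus strand) was measured first, since it is the gene the NLS construct is meant to express. Its level was 334 CPM (counts scaled to library depth) in NLS line 6 (95% exact Poisson interval 326 to 342), 197 CPM in line 7 (191 to 203) and 1.2 CPM in line 16 (0.762 to 1.8). LacZ line 10 gave 0.164 CPM (3 reads) and LacZ line 12 had 0 reads (interval 0 to 0.186 CPM). The intervals cover counting error only. Lines 6 and 7 were thus more than 100-fold above line 16, and line 16 was closer to the LacZ lines than to its own group. The summed reads gave a ratio of 2342 between the groups (counting interval 801 to 11359), and edgeR's quasi-likelihood test did not call the gene (adjusted p = 0.148; 0.00545 without NLS line 16). How much of the construct's own transcript matches the mouse gene is not given in the labels, so these reads may understate it. For this reason counts with which a gene list is described were also made without line 16.

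Depth was even, from 18902460 to 22353964 estimated reads in the 5 libraries. Libraries of a group differed beyond sampling noise, with a chi-square per degree of freedom of 6.94 to 15.2 within groups and of 81.4 to 97.9 between groups. Of 20 pigment cell genes, 7 were at 0 in all 5 libraries, Mlana, Tyrp1, Kit and Ednrb among them. Tyr lay between 0.164 and 0.455 CPM and Mitf between 2.72 and 3.59 CPM. These 20 genes summed to 92.5 to 108 CPM in NLS and 67.5 to 68.5 CPM in LacZ. Most of the sum was in Pax3 (mean 82.2 against 42 CPM). Fibroblast marker genes summed to 6355 to 6842 CPM in NLS and 3363 to 3382 CPM in LacZ, with most of the sum in Col3a1 (mean 5276 against 2107 CPM). Of these 12 markers, 5 were tested: Col3a1, Pdgfra and Pdgfrb were higher, S100a4 (mean 891 against 1049 CPM) and Dcn (4.22 against 13.2 CPM) were lower, and the other 7, Thy1 and Fap among them, did not reach 1 CPM in 2 libraries, the minimum for the test. Leukocyte markers summed to 8.25 to 9.31 CPM and 8.48 to 9.4 CPM, with Adgre1 at 0 in all 5 and most of the sum in Cd68. Keratinocyte and epithelial markers summed to 4.57 to 6.48 and 3.79 to 5.46 CPM, and endothelial ones to 3.66 to 4.52 and 2.24 to 3.03 CPM. Schwann and nerve markers summed to 636 to 700.0 and 794 to 824 CPM, with Nes at a mean of 353 against 508 CPM. In bulk RNA, fewer cells of a kind and less RNA per cell cannot be told apart.

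The 2 groups differed in a large part of the transcriptome. Of 11938 genes tested, 5697 (47.7%) were called at an adjusted p below 0.05, 2864 higher in NLS (24%) and 2833 lower (23.7%). Most differences were small: 1368 genes (11.5%) were called and differed by at least 2-fold, 866 higher (7.25%) and 502 lower (4.21%). Among the largest differences the higher genes were more numerous, with 466 higher and 173 lower by at least 4-fold and 214 higher and 33 lower by at least 16-fold. The groups did not overlap in 7984 genes (66.9%). Genes silent in one group made up part of the extremes: 50 genes had 0 reads in both LacZ libraries and at least 1 CPM in every NLS library, and 5 genes had the reverse. The even split rests on the scaling. With library totals in place of TMM (trimmed mean of M-values) factors, 3496 genes were higher and 2293 lower, and the median log2 fold change of all genes moved from 0.00295 to 0.0686.

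**Figure D1:**
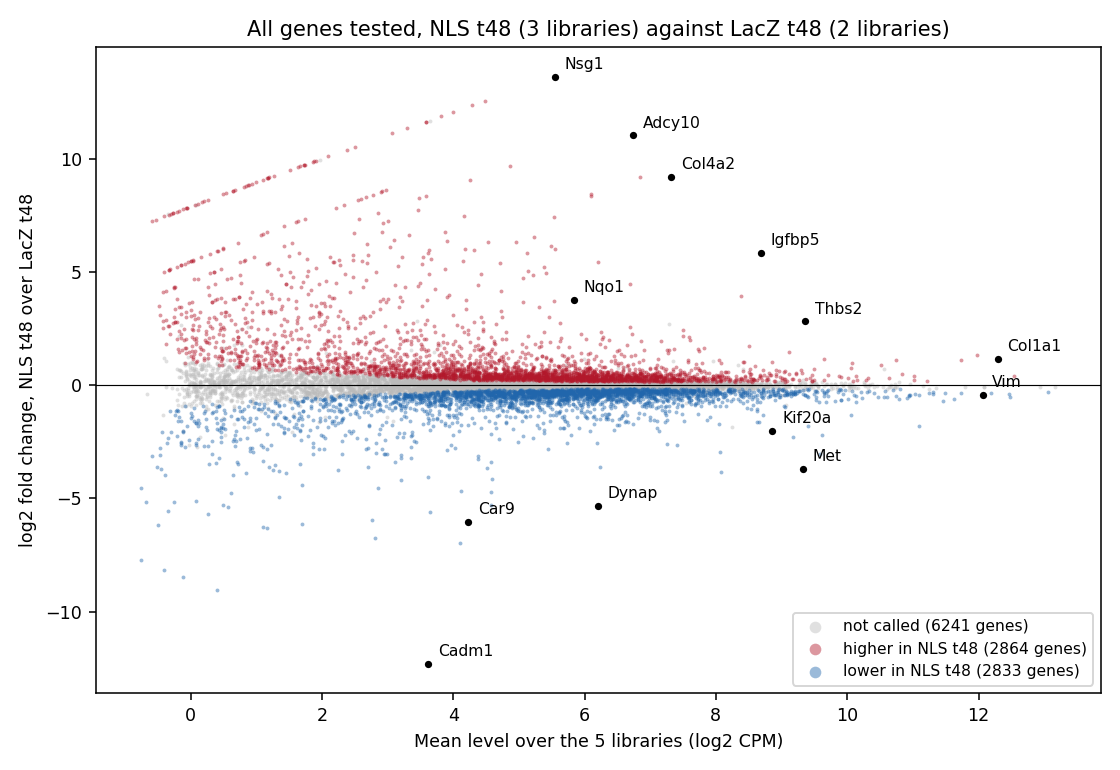
Each point is 1 of the 11938 genes tested, with the mean level over the 5 libraries (log2 CPM) on the horizontal axis and the log2 fold change of NLS t48 over LacZ t48 on the vertical axis. Red points were called higher in NLS (2864), blue points lower (2833) and grey points were not called; slanted rows of points at the upper left are genes with 0 or very few LacZ reads, whose fitted fold changes depend on the prior count.

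The 12 largest increases all came from genes with 0 reads in both LacZ libraries, so their folds are lower bounds against a floor of 3 reads per library. Nsg1, which encodes an endosomal sorting protein of neurons, was at 75.7, 88 and 68.9 CPM in NLS lines 6, 7 and 16, at least 491-fold higher (adjusted p = 5.78e-08). Igfbp2, which encodes a binding protein for insulin-like growth factors, was at 39.2, 36.8 and 34.4 CPM, at least 234-fold higher. Robo1, the gene of a Slit receptor in axon guidance, was at 31.1, 34.6 and 30.4 CPM, at least 203-fold higher. Non-overlap of the groups was a condition for choosing these 12 genes and is not a further result. Ehd3, Adam23, Sox11, Vat1l and Spats2l followed, at least 165, 146, 124, 124 and 101-fold higher. Sox11 encodes a transcription factor of the embryonic nervous system, at 21.3, 17.9 and 19.6 CPM. Megf6, Pnma2, Ctsc and Zfp521 completed the group, at least 86.6, 57.7, 52.8 and 42.7-fold higher. Zfp521, a zinc finger factor gene, was at 5.7, 8.3 and 6.22 CPM.

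The 12 largest decreases included cell surface and interferon-inducible genes. Among them, Lrrtm2, Arap3 and Dynap lie in stretches of chromosome 18, described below, where most genes were lower. Cadm1, which encodes an immunoglobulin-family adhesion molecule (ENSMUSG00000032076, chr9:47530173-47857637, plus strand), had 0 reads in the 3 NLS libraries and 32.1 and 30.3 CPM in LacZ, at least 219-fold lower (adjusted p = 7.28e-08). Gpr149, an orphan receptor gene, was at 0.371, 0.176 and 0.471 CPM against 47.8 and 38 CPM (log2 fold change -6.99, SE 0.21). Car9, the hypoxia-inducible carbonic anhydrase gene, was at 0.695, 0.571 and 0.889 CPM against 48 and 44.8 CPM (-6.02, SE 0.14). Non-overlap of the groups was a condition of the choice here too. Dynap was at 5.33, 2.5 and 5.49 CPM against 177 and 179 CPM (-5.34, SE 0.26), and Lrrtm2, a synaptic adhesion gene, at 1.67, 1.36 and 1.36 CPM against 55.5 and 60.2 CPM (-5.30, SE 0.11). Arap3 (-5.94), Odaph (-6.12) and Grid1 (-4.96; -5.60 without NLS line 6) were lower as well. Gbp9 (-6.74), Gbp4 (-6.27), Oas1a (-6.31; -5.71 without NLS line 7) and Gvin1 (-5.58; -6.21 without NLS line 16 and -4.98 without NLS line 6) belong to interferon-inducible families with near-identical copies, between which the read assignment is uncertain.

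**Figure D2:**
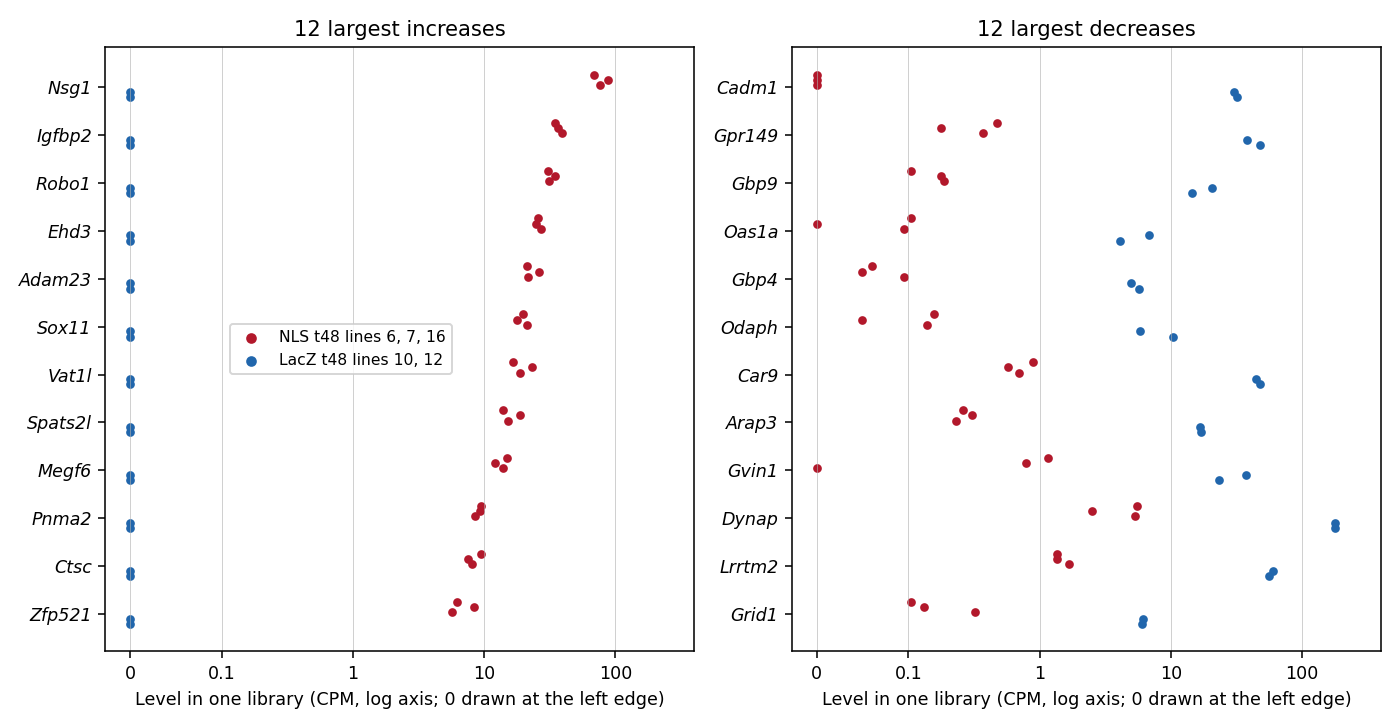
Levels in single libraries (CPM, log axis, 0 at the left edge) of the 12 largest increases and the 12 largest decreases, with 1 point per library, red for NLS t48 and blue for LacZ t48. Blue points stand at 0 for all 12 increases, and red points stand at 0 in all 3 libraries only for Cadm1.

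Matrix genes were among the clearest groups. Of 26 extracellular matrix genes tested, 19 were higher in NLS and 3 lower (84.6% called, against 47.7% of all genes). Their median log2 fold change was 1.0, where all genes tested had a median of 0.00. Fibroblast markers share collagens with this list, and their part in it was not tested. The sharpest case was collagen IV, the network collagen of basement membranes. Col4a1 and Col4a2 encode its common chains and are transcribed in opposite directions from start sites 21 bases apart on chromosome 8 (Col4a1 at chr8:11198423-11312826, minus strand; Col4a2 at chr8:11312805-11449287, plus strand). Col4a2 was at 263, 265 and 266 CPM in NLS and 0.382 and 0.505 CPM in LacZ (log2 fold change 9.19, SE 0.12, adjusted p = 1.07e-10). Col4a1 was at 179, 194 and 199.7 CPM against 0.164 and 0.455 CPM (9.21, SE 0.18; 10.13 without LacZ line 12 and 7.61 with effective length offsets). Both chains stood at over 100 CPM in each NLS line and under 1 CPM in each LacZ line, and Col4a2 had the smallest p of all genes. Thbs2, a matricellular glycoprotein gene, was at 1033, 944 and 1023 CPM against 144 and 138 CPM (2.82, SE 0.07). Fibrillar collagen genes differed less in fold: Col3a1 was at 5098, 5565 and 5165 CPM against 2059.8 and 2155 CPM (1.32, SE 0.06), and Col1a1 at 6031, 6505 and 6817 CPM against 3066 and 2657 CPM (1.17, SE 0.08). The 3 lower members were the proteoglycan genes Bgn (-0.69) and Dcn (-1.64) and the laminin chain gene Lamb1 (-0.65).

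Enzymes and inhibitors that turn over the matrix had 11 higher and 2 lower of 21 (61.9% called, against 47.7% of all genes), with a median of 0.51. At t0 they had 4 higher and 8 lower of 20, with a median of -0.22. Under the t48 label Adamts2, which encodes the peptidase that trims procollagens, was at 71.2, 74.8 and 72.6 CPM against 4.92 and 6.11 CPM (log2 fold change 3.72, SE 0.11). Adam12 (1.28) and Loxl1 (0.82), a collagen crosslinking enzyme gene, were higher. Timp1, a metalloproteinase inhibitor gene, went the other way at 408, 392 and 360.5 CPM against 781 and 722 CPM (-0.96, SE 0.07), as did Loxl3 (-0.83).

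Secreted signals and their output formed another higher group. Of 15 Wnt ligands, receptors and output genes tested, 12 were higher and 2 lower (93.3% called, against 47.7% of all genes), with a median of 2.89. Wnt5a, a ligand of the beta-catenin-independent branch, was at 10.3, 14.8 and 9.41 CPM against 0 and 0.101 CPM, a ratio of 222 (counting interval 61.3 to 1837, from 2 LacZ reads). Axin2 and Notum, feedback genes of the beta-catenin branch, were at 18.5, 18.6 and 19.7 CPM against 0.983 and 1.82 CPM (log2 fold change 3.74, SE 0.20) and at 17, 22 and 15.4 CPM against 2.35 and 2.53 CPM (2.89, SE 0.20). Nkd1, another feedback gene, had 1 LacZ read and a ratio of 485 (86.8 to 19177). The transcription factor gene Lef1 was lower (-1.42), as was Znrf3 (-0.36), whose call was lost without LacZ line 12 (adjusted p = 0.12) and without NLS line 6 (0.0798).

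TGF-beta and BMP genes had 12 higher and 2 lower of 20, with a median of 0.49 (6 higher and 8 lower at t0, median -0.11). The ligand gene Tgfb2 was at 64.3, 58.1 and 79.6 CPM against 8.14 and 8.43 CPM (log2 fold change 3.02, SE 0.15), and Tgfb3 at 284, 283 and 218 CPM against 59 and 56.6 CPM (2.18, SE 0.13). Bmp4 was at 16.7, 21.7 and 15.6 CPM against 0 and 0.101 CPM, a ratio of 346 (95.6 to 2863). Ltbp1, which encodes a latent TGF-beta binding protein, was lower (-0.47). The ligand gene Tgfb1 was not called. Over this list the groups did not overlap in 13 genes towards higher and 4 towards lower, where all genes had 33.7% and 33.2%.

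Growth factor and receptor kinase genes were divided, 14 higher and 4 lower of 24. Igfbp5, an insulin-like growth factor binding protein gene, was at 784, 665 and 585 CPM against 10.8 and 12.9 CPM (log2 fold change 5.83, SE 0.17). Igfbp7 was higher (2.48). Met, the receptor of hepatocyte growth factor, was at 98.2, 136 and 96 CPM against 1482 and 1405 CPM (-3.71, SE 0.16, adjusted p = 1.55e-05). Hgf, the gene of its ligand, was at 0.788, 0.966 and 0.418 CPM against 17.5 and 17 CPM (-4.54, SE 0.22). In this list the groups did not overlap in 15 genes towards higher and 5 towards lower, where all genes had 33.7% and 33.2%.

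Interferon-stimulated genes were lower in NLS. Of 30 tested, 24 were lower and 1 higher, with a median log2 fold change of -1.23. Oasl1, a member of the oligoadenylate synthetase family, was at 2.5, 2.11 and 1.36 CPM against 17.3 and 15.7 CPM (log2 fold change -3.04, SE 0.20). Bst2, which tethers budding virus particles, was at 8.52, 8.56 and 7.95 CPM against 24.5 and 29.5 CPM (-1.69, SE 0.11). Oas1a, which makes the activator of RNase L, was at 0.0927, 0 and 0.105 CPM against 4.1 and 6.87 CPM. Both LacZ libraries stood above every NLS library in 24 of the 30 genes, against 33.2% of all genes. Irf1, an interferon-inducible transcription factor gene, was the only higher member at 129, 117 and 119 CPM against 89.3 and 96.3 CPM (0.39, SE 0.07). The 5 members not called were Gbp2, Gbp3, Gbp7, Ddx58 and Zbp1.

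The promoters of Oas1a and Bst2 are shown because both carry the interferon response element in a run of tandem GAAA repeats. The 250 bases before the RefSeq start site (GRCm38.p6) are at chr5:120907526-120907775, minus strand, and at chr8:71537473-71537722, minus strand, printed 5′ to 3′ on the strand of the gene with each match to the element (GAAA, any 2 bases, GAAA) in capitals.
Oas1a: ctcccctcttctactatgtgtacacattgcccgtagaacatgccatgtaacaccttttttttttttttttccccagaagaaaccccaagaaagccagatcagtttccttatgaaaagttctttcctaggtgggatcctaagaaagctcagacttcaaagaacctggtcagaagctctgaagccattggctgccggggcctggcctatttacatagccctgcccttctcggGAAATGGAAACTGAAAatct
Bst2: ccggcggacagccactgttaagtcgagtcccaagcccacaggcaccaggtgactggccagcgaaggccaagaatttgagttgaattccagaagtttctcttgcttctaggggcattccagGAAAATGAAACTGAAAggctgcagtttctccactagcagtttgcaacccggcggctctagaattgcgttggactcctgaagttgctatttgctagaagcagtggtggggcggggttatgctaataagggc
Both hold 2 overlapping matches, the first beginning 20 bases before the start site in Oas1a and 130 bases before it in Bst2. Searched on both strands, the letters were found in 12 of 22 list members with such a window (54.5%), of which 9 were lower and 3 were not called, and in 936 of 27025 genes in the RefSeq table (3.46%). A match describes the letters only and shows no binding.

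Antigen presentation genes were lower as well, 12 of 17 with none higher and a median of -0.40 (7 higher and 5 lower at t0, median 0.20). H2-D1, a class I heavy chain gene with close copies, was at 70.8, 68.6 and 76.3 CPM against 133 and 139 CPM (log2 fold change -0.92, SE 0.07). Tap2, a peptide transporter gene, was at 17, 19.5 and 20.7 CPM against 38.4 and 35.3 CPM (-0.95, SE 0.10). Psmb8, an immunoproteasome subunit gene, was at 32.3, 37.3 and 35.7 CPM against 55.6 and 59.7 CPM (-0.72, SE 0.08). The differences of these 3 genes were under 2-fold. Among the 17, the groups did not overlap in 13 towards lower and 1 towards higher, where all genes had 33.2% and 33.7%. Of 12 chemokines and cytokines, 4 were lower and 1 higher (5 lower and 3 higher without NLS line 16), and the share called, 41.7%, was below the 47.7% of all genes. Cx3cl1 (-0.84), Lif (-0.89) and Il34 (-0.85) were lower, and Ccl7 was higher (0.75), a call lost without LacZ line 10 (adjusted p = 0.099) or LacZ line 12 (0.147).

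Genes of sterol synthesis were lower with no exception among the calls. Of 22 tested, 18 were lower and none higher (81.8% called, against 47.7% of all genes), with a median of -0.99. Msmo1, which encodes the oxidase that removes methyl groups from sterol intermediates, was at 53.9, 55.7 and 52.4 CPM against 154 and 175 CPM (log2 fold change -1.61, SE 0.07). Fdps, which makes farnesyl diphosphate, was at 109, 115 and 107 CPM against 251 and 258 CPM (-1.20, SE 0.06). Stard4, a cholesterol transport gene, was at 47.8, 52.7 and 45 CPM against 127 and 131 CPM (-1.41, SE 0.07). These 3 were shown for their small p-values. Fatty acid synthesis was mixed, 3 higher and 8 lower of 14, with Fasn (-0.70) and Scd2 (-0.58) lower and Acss2 (1.42) and Me1 (0.52) higher.

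Glycolysis and hypoxia genes had 16 lower and 2 higher of 23 (78.3% called, against 47.7% of all genes), with a median of -0.53. Pgam1, a glycolytic mutase gene, was at 882, 839.6 and 929 CPM against 1561 and 1426 CPM (log2 fold change -0.76, SE 0.07). Pdk1, which slows the entry of pyruvate into mitochondria, was at 92.8, 100.3 and 104 CPM against 172 and 164 CPM (-0.76, SE 0.07). Car9 was the most reduced. Egln3, an oxygen-sensing hydroxylase gene that hypoxia is known to induce, went the other way at 39.8, 40.5 and 39.3 CPM against 20.6 and 17.7 CPM (1.06, SE 0.09), as did Hk2 (0.35). Pgam1 and Egln3 moved in opposite directions, and their promoters are shown because both hold the hypoxia response core ACGTG. The 250 bases before the start site are at chr19:41911621-41911870, plus strand, and at chr12:54203875-54204124, minus strand, with the match in capitals.
Pgam1: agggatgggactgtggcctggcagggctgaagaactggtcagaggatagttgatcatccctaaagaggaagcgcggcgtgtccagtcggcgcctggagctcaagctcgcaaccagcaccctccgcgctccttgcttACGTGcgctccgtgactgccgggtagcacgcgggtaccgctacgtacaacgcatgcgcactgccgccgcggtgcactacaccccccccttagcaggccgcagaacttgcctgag
Egln3: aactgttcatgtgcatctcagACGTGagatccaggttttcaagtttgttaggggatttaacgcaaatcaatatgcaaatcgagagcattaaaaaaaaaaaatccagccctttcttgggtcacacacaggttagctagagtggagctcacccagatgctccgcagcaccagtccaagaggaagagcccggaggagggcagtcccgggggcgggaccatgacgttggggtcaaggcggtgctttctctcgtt
The match began 114 bases before the start site in Pgam1 and 229 bases before it in Egln3. The letters, searched on both strands, occurred in 14 of 22 members with a window (63.6%), 9 lower, 2 higher and 3 not called, and in 4998 of 27025 genes (18.5%), so a core this short is common.

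The cAMP and CREB targets are the list closest to the enzyme. Of 22 tested, 8 were higher and 6 lower, with a median of 0.03, where all genes had 24% higher and 23.7% lower. Dio2, a thyroid hormone deiodinase gene known as a cAMP target, was at 2.41, 3.69 and 1.57 CPM against 0.164 and 0.253 CPM (log2 fold change 3.58, SE 0.52, adjusted p = 0.000401). Per1 and Per2, clock genes with CREB-responsive promoters, were at 40.1, 37.1 and 38.2 CPM against 26.6 and 23.9 CPM (0.61, SE 0.09) and at 29.8, 35.4 and 36.1 CPM against 17.9 and 21 CPM (0.79, SE 0.11). Areg, the growth factor amphiregulin, was at 2.22, 2.85 and 1.25 CPM against 25.5 and 14.5 CPM (-3.22, SE 0.36). Egr1 was lower too (-1.52), but it lies in a stretch of neighbouring genes, described below, whose median was -1.54. Its own difference cannot be told apart from that of the stretch. Rgs2 was lower as well (-2.22), a call lost with effective length offsets (-1.35, adjusted p = 0.226). Nr4a1, an early CREB target, did not pass at 11.1, 8.65 and 3.82 CPM against 8.96 and 10.1 CPM (-0.27, adjusted p = 0.654), nor did Crem, whose inducible form represses CREB targets (0.17, adjusted p = 0.609). Line 16, the NLS line with few Adcy10 reads, was the lowest NLS library for Dio2, Areg, Rgs2 and Nr4a1. It lay between the other NLS lines for Per1 and Egr1 and above them for Per2. Without it, 9 members were higher and 5 lower. The promoters of Dio2 and Areg, which differed in opposite directions, are shown because each holds a full CREB palindrome, TGACGTCA. The windows are at chr12:90739039-90739288, minus strand, and at chr5:91139349-91139598, plus strand.
Dio2: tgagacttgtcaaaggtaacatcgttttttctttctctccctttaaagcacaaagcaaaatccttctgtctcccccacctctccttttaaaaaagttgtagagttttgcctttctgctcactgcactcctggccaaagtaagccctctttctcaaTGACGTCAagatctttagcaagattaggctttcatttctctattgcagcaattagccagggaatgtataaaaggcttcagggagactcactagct
Areg: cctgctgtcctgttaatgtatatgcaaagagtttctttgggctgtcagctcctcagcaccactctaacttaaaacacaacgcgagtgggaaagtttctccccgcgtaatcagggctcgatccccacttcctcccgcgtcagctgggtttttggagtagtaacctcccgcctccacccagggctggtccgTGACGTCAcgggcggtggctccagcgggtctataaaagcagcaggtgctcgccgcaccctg
The palindrome, in capitals, began 95 bases before the start site in Dio2 and 61 bases before it in Areg. It occurred in 4 of 16 members with a window (25%), 2 higher and 2 lower, and in 478 of 27025 genes (1.77%).

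Of 25 tested genes of the cAMP machinery, 9 were higher and 8 lower (68% called, against 47.7% of all genes). The phosphodiesterase gene Pde3a had 0 LacZ reads and 2.69, 2.63 and 1.88 CPM in NLS, at least 15.2-fold higher. The transmembrane cyclase gene Adcy3 was higher (log2 fold change 0.65) and Adcy7 lower, at 89, 83.4 and 91.3 CPM against 159 and 178 CPM (-0.94, SE 0.07). Prkaca, the main catalytic subunit of protein kinase A, was at 90.7, 89.3 and 84.7 CPM against 134 and 126 CPM (-0.56, SE 0.06), and the regulatory subunit gene Prkar2a was lower (-0.60). Pde4d, a cAMP phosphodiesterase gene, did not pass (0.04, adjusted p = 0.925). Pigment cell genes were too scarce to describe as a group, with 6 of 20 above the minimum. Pax3, an upstream factor of the lineage, was at 85.9, 89.3 and 71.3 CPM against 44.3 and 39.7 CPM (0.97, SE 0.10), Gpnmb was lower (-0.55; adjusted p = 0.117 without LacZ line 12), and Mitf did not pass (-0.07, adjusted p = 0.816).

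YAP/TAZ targets, the genes switched on by the co-activators of the Hippo pathway, had 12 higher and 4 lower of 22. That was 72.7% called, against 47.7% of all genes, with a median of 0.47. Igfbp3 was at 725, 845 and 653 CPM against 269 and 265 CPM (log2 fold change 1.47, SE 0.10), and Amotl2 at 125, 143 and 130.0 CPM against 64.7 and 72.2 CPM (0.95, SE 0.08). Axl, a receptor kinase gene, was lower at 309, 321 and 336 CPM against 543 and 530.0 CPM (-0.74, SE 0.06). The classical targets were less firm. Ccn1 was higher (0.55, adjusted p = 0.0155), a call lost without LacZ line 10 (0.125) and without NLS line 7 (0.0728). Ccn2, at 379, 295 and 533 CPM against 219.8 and 268 CPM, did not pass (0.72, adjusted p = 0.142; 0.0419 without NLS line 16 and 0.0469 without NLS line 7). Yap1 itself was slightly lower (-0.26, SE 0.06).

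Feedback and output genes of ERK signalling, the kinase cascade that drives most melanomas, had 14 lower and 3 higher of 20. That was 85% called, against 47.7% of all genes, with a median of -0.90. The same lines at t0 had 11 lower and 2 higher of 20, with a median of -0.86. The transcription factor genes Etv4 and Etv5 were at 19.5, 18.4 and 18.3 CPM against 77.1 and 63.6 CPM (log2 fold change -1.91, SE 0.10) and at 29.5, 32.1 and 25.1 CPM against 90.6 and 87.6 CPM (-1.62, SE 0.10). Hbegf, a ligand of the EGF receptor, was lower (-1.35). Spry1, a feedback inhibitor gene, went against the group with 0 LacZ reads and 5.47, 4.57 and 5.75 CPM in NLS, at least 33.4-fold higher. Ereg, another EGF receptor ligand, was at 4.17, 5.49 and 3.92 CPM against 0 and 0.101 CPM, a ratio of 87 (23.9 to 722). Egr1, Hbegf and Spry4 lie in a stretch of chromosome 18 described below; without genes of that chromosome, an alternative added after the stretch was seen, 11 were lower and 3 higher of 17.

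Cell cycle genes were mildly lower under the t48 label. Replication and G1/S genes had 14 lower and 4 higher of 25 (median -0.28, and 1 higher without NLS line 16). Mitotic genes had 12 lower and none higher of 24 (median -0.18), where all genes had 23.7% lower and 24% higher. The same lines at t0 did not lean towards lower. There, replication and G1/S genes had 6 lower and 6 higher of 25 (median 0.10), and mitotic genes 2 lower and 6 higher of 24 (median 0.06). At t48 Ccnd2, a G1 cyclin gene, was at 206, 223 and 199.8 CPM against 378 and 413 CPM (log2 fold change -0.92, SE 0.07). Rrm2, a subunit of ribonucleotide reductase, was higher (0.70). Kif20a, a mitotic kinesin gene, was at 202, 219 and 202 CPM against 850.2 and 848 CPM (-2.03, SE 0.06) and Cdc25c was lower by a like amount (-1.87); both lie in the chromosome 18 stretch. Cdc25b, on chromosome 2, was lower by less (-0.55). Without chromosome 18, 10 mitotic genes were lower of 22. Nuclear genes of the respiratory chain had 13 lower and 3 higher of 22 (72.7% called), and 11 and 3 of 20 without chromosome 18. Among the lower ones were Ndufa2 (-1.91) and Atp5a1 (-0.65) from chromosome 18 and Cox4i1 (-0.52) from chromosome 8. Of the 13 mRNAs encoded by mitochondrial DNA, 2 were called (15.4%, below the 47.7% of all genes). Both were lower, mt-Nd5 (-0.50) and mt-Co1 (-0.33, and -0.23 without LacZ line 12). The mt-Co1 call was lost with all 13 libraries (edgeR adjusted p = 0.107).

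**Figure D3:**
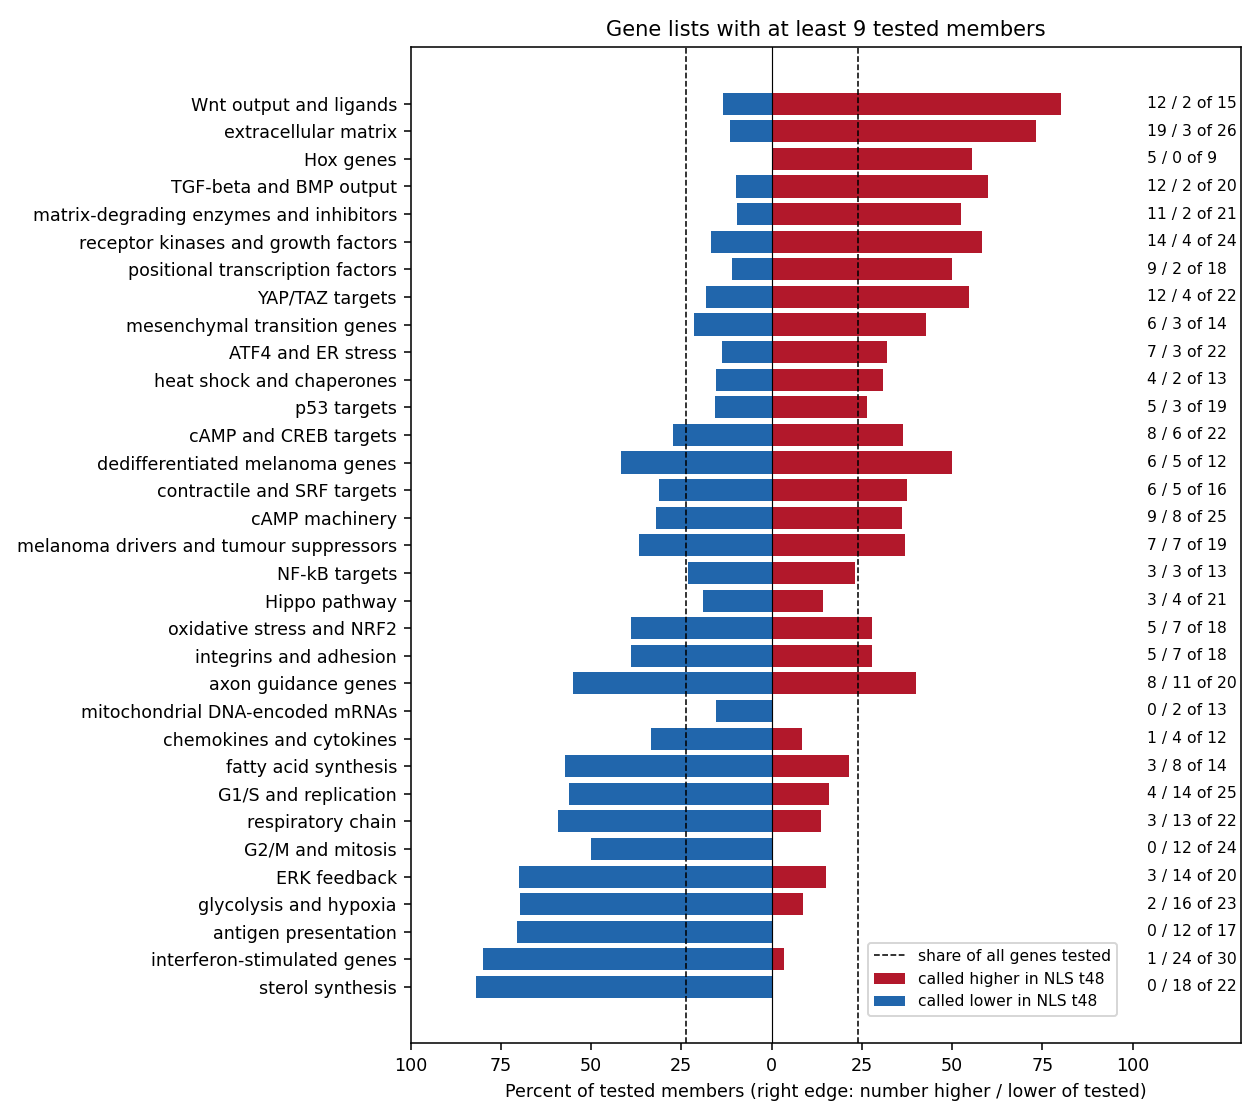
For each gene list with at least 9 tested members, the red bar gives the percent called higher in NLS t48 and the blue bar the percent called lower, with the counts at the right edge. Dashed lines mark the shares of all genes tested, 24% higher and 23.7% lower; Wnt and matrix genes reach farthest on the higher side, and sterol synthesis and interferon-stimulated genes on the lower side.

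Several lists held large differences in both directions. Of 20 axon guidance genes, 8 were higher and 11 lower (95% called, against 47.7% of all genes). Robo2 was at 19.1, 16.8 and 17.7 CPM against 0.0546 and 0.101 CPM, a ratio of 227 (77.4 to 1101, from 3 LacZ reads). Sema7a, a membrane-anchored semaphorin gene, was at 18.6, 15.4 and 20.7 CPM against 112 and 102 CPM (log2 fold change -2.56, SE 0.11), and Ephb2 was lower (-1.23). Both Robo receptor genes were therefore on in NLS and nearly silent in LacZ. Among 18 integrins and adhesion genes, 5 were higher and 7 lower, where all genes had 24% higher and 23.7% lower. Itga1, a collagen receptor subunit gene, was at 6.63, 7.95 and 5.75 CPM against 0.546 and 0.404 CPM (3.83, SE 0.28). Itga7, a laminin receptor subunit gene, was at 12.8, 12.9 and 14.8 CPM against 62.7 and 63.7 CPM (-2.23, SE 0.09). Itga3 was lower (-1.73).

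Genes that record developmental position and imprinting also differed. Of 39 Hox genes, 9 were tested, of which 5 were higher and none lower (55.6% called, against 47.7% of all genes). The same lines at t0 had 1 higher and 3 lower of 8, with a median of -0.22. Hoxb9 was at 87.4, 75.5 and 83.5 CPM against 49.6 and 58.1 CPM (log2 fold change 0.61, SE 0.09). Of 18 other positional transcription factor genes, 9 were higher and 2 lower (61.1% called), with 1 lower without NLS line 16. Under the t0 label 5 were higher and 7 lower of 17, with a median of -0.11. Foxd1, a forkhead factor gene, was at 9.17, 8.96 and 10.0 CPM against 0.0546 and 0 CPM, a ratio of 356 (63.7 to 14104, from 1 LacZ read), and Tshz3 was at least 36.9-fold higher. All 7 imprinted genes tested were called, 5 higher and 2 lower, while at t0 2 were higher and 2 lower of 5. Igf2, the paternally expressed growth factor gene, was at 7.83, 7.16 and 7.84 CPM against 0.273 and 0.101 CPM (5.32, SE 0.31; 6.15 without LacZ line 10), and Igf2r, the maternally expressed receptor that clears it, at 148, 169 and 145 CPM against 35.2 and 29.9 CPM (2.24, SE 0.10). Sgce (-1.31) and Peg10 (-0.54), neighbours on chromosome 6, were lower.

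Stress lists held few large differences beyond single genes. NRF2 targets had 5 higher and 7 lower of 18 (66.7% called, against 47.7% of all genes). The same lines at t0 had 11 higher and 2 lower, with a median of 0.40. Nqo1, a quinone reductase gene, was at 96.6, 87 and 87 CPM against 5.96 and 7.32 CPM (log2 fold change 3.76, SE 0.11). Tkt (-0.66) and Gstp1 (-0.54) were lower. ATF4 and ER stress genes had 7 higher and 3 lower of 22 (45.5%, near the 47.7% of all genes), with Atf3 (2.05) and Ddit3 (0.45) higher and the cystine transporter gene Slc7a11 lower (-0.76). p53 targets had 5 higher and 3 lower of 19 (42.1%). Pmaip1, a BH3-only death gene, was higher (1.95), and Cdkn1a did not pass (0.05, adjusted p = 0.733). Of the melanoma drivers and tumour suppressors, Cdkn2b was lower (-0.48), and Cdkn2a did not pass (-0.14, adjusted p = 0.15).

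Among the 10 smallest p-values were genes of no list, chosen here after their values were seen. Il2rg, the common gamma chain of interleukin receptors, was at 64.4, 57.7 and 62.5 CPM against 0.656 and 0.657 CPM (log2 fold change 6.54, SE 0.14). Fmod, a small proteoglycan gene, was at 112, 111 and 117 CPM against 0.546 and 0.152 CPM (8.35, SE 0.19). Dock8 (-4.70) and Hmga2, an oncofetal chromatin gene (-2.66), were lower. Ptprc, which marks the leukocytes that usually express Il2rg, was at most 0.0505 CPM, and the source of the Il2rg reads was not tested.

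The differences were not spread evenly over the genome. On chromosome 18, 198 of 323 tested genes were lower (61.3%) and the median log2 fold change was -0.59, while the medians of the other autosomes and X lay between -0.13 and 0.23. In windows of 5 Mb with at least 15 tested genes, the 5 windows of 304 with a median below -0.5 were all on chromosome 18, and none had a median above 0.5. The values formed steps along the chromosome, with borders drawn after the values were seen. From 0 to 20 Mb the median was 0.05 (44 genes), from 20 to 25 Mb it was -0.73 (18 genes), from 30 to 34 Mb 0.05 (18 genes), from 34 to 43 Mb -1.54 (81 genes, 72 lower and 3 higher), from 46 to 75 Mb -0.61 (108 genes) and from 75 to 91 Mb -0.15 (44 genes). The stretches between these segments held few tested genes. In the deepest segment the lower and upper quartiles were -1.80 and -1.32. Relative to the LacZ mean, the segment's median was -1.48, -1.51 and -1.52 in NLS lines 6, 7 and 16, and 0.00 in both LacZ lines, so the 3 NLS lines shared it. Apc, the Wnt pathway scaffold, opened the segment at 89.6, 87.8 and 83.6 CPM against 251 and 254 CPM (-1.54, SE 0.06). Egr1, counted above among the cAMP and CREB targets, lies there too (-1.52). Without genes of this chromosome, 8 of those targets were higher and 5 lower of 20. The same segment had a median of -1.43 under the t0 label, and that from 46 to 75 Mb a median of -0.59. Construct, cell line and chromosome segment cannot be told apart for the genes that lie there.

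**Figure D4:**
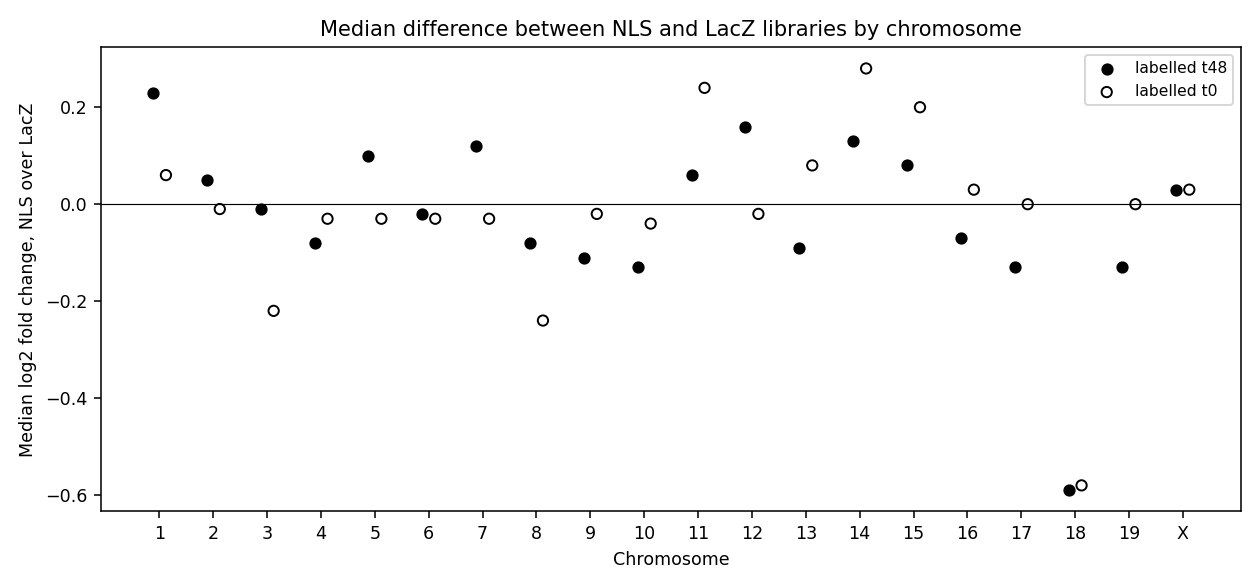
Median log2 fold change of NLS over LacZ for the tested genes of each chromosome, filled points under the t48 label and open points under the t0 label. Chromosome 18 stands at -0.59 and -0.58 under the 2 labels, below all other chromosomes drawn.

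Chromosome 1 leaned the other way, with 333 of 698 genes higher (47.7%) and a median of 0.23, against 0.06 under the t0 label. A smaller run lay on chromosome 6, where the 5 neighbouring tested genes Mdfic (-2.60), Tes (-3.03), Cav2 (-2.96), Cav1 (-1.05) and Met (-3.71) were all lower. Tes, a focal adhesion gene, was at 197, 184 and 214 CPM against 1622 and 1610.3 CPM, and Cav1 and Cav2 encode the coat proteins of caveolae. The next genes along the chromosome ended the run, with Capza2 at a log2 fold change of 0.02 and St7 at 0.32. Met belongs to the growth factor and receptor list above, and its neighbours were chosen after their values were seen.

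The same lines differed under the t0 label too. There, 4740 of 11801 genes (40.2%) were called, 2280 higher and 2460 lower. Of the 11629 genes tested under both labels, 2614 were called in the same direction, 47.7% of the t48 calls and 56.3% of the t0 calls, and 288 in opposite directions. The log2 fold changes correlated at r = 0.694 across genes, which are not independent and come from the same 5 lines. Collagen IV was among the shared differences, with log2 fold changes of 8.44 (Col4a2) and 8.64 (Col4a1) at t0, as were Met (-2.11), Car9 (-4.43) and Notum (2.92). Sterol genes, 18 lower of 22 at t48, had 18 lower and 1 higher of 22 at t0, with a smaller median (-0.57).

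For other genes the difference between NLS and LacZ was not the same under the 2 labels. The difference between the t48 and t0 differences, an interaction term over the 10 libraries, was called for 2916 of 12159 genes (24%), and for 5000 (41.1%) with the cell line number as a block. Interferon-stimulated genes had 17 members with a called difference towards lower at t48 and none towards higher, where the share of all genes was 11.7% and 12.3%; at t0, 14 were lower and 7 higher of 29. Matrix genes had 12 towards higher and 1 towards lower of 26, and cAMP and CREB targets 8 towards higher and 1 towards lower of 22, having had 1 higher and 8 lower at t0. With the block, interferon-stimulated genes had 22 towards lower and none towards higher, and matrix genes 12 towards higher and 3 towards lower. The cAMP and CREB targets then had 11 towards higher and 4 towards lower, where all genes had 20.6% towards higher and 20.5% towards lower. Other lists shifted too, counted without the block. Towards lower and towards higher, NRF2 targets had 11 and 2 of 18, and replication and G1/S genes 12 and 1 of 25. Sterol genes had 11 and none of 22, glycolysis and hypoxia genes 10 and 1 of 23, and antigen presentation genes 9 and 3 of 17. Towards higher, Wnt genes had 7 of 15 and Hox genes 5 of 9, with none towards lower. Dio2 was at 0.984, 1.8 and 0.726 CPM in NLS and 1.19 and 1.3 CPM in LacZ at t0, where the groups overlapped (log2 difference of differences 3.66, SE 0.73, adjusted p = 0.00427). In LacZ it was lower in both t48 than in both t0 libraries, and in NLS higher in each line. Igfbp5 was at 49.4, 24.8 and 34.2 CPM in NLS and 75.3 and 109 CPM in LacZ at t0, the reverse of its order at t48 (7.19, SE 0.47). Psmb8 was at 34, 35.4 and 33.2 CPM in NLS and 8.38 and 8.29 CPM in LacZ at t0 and also reversed (-2.75, SE 0.12); its NLS levels at t48 spanned nearly the same range, and it was LacZ that differed between labels. Setbp1 was at 9.75, 11.9 and 9.49 CPM in NLS and 23.2 and 23.3 CPM in LacZ at t0, against 27.9, 32.4 and 27.3 CPM and 0.164 and 0.152 CPM at t48 (8.65, SE 0.27). Nqo1 was higher in NLS under both labels and more so at t48 (2.30, SE 0.20), and Egln3 less so (-3.18, SE 0.16). Construct and cell line cannot be told apart in these differences either.

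**Figure D5:**
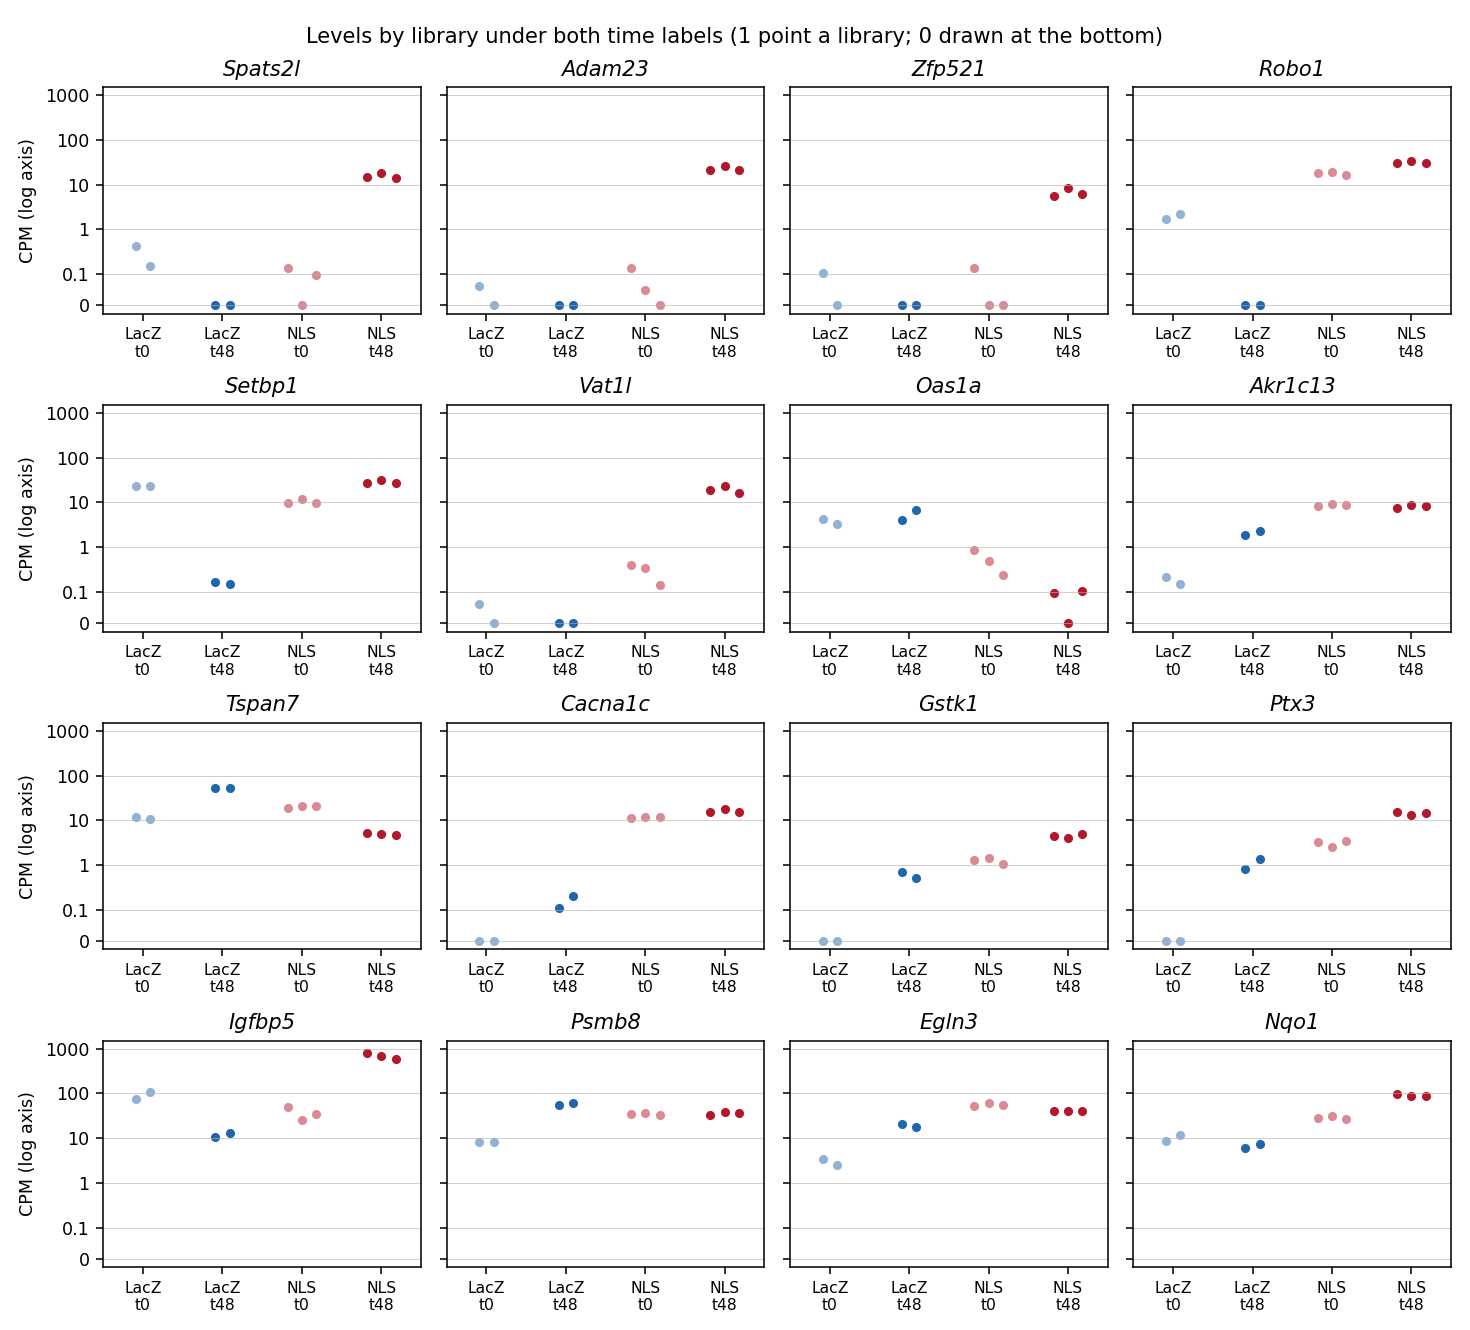
Levels in single libraries (CPM, log axis, 0 at the bottom) of 16 genes under the t0 and t48 labels, with 1 point per library, blue for LacZ and red for NLS, paler at t0. In Igfbp5, Setbp1, Psmb8 and Tspan7 the order of the 2 groups reverses between the labels, while Egln3, Akr1c13, Cacna1c, Nqo1 and Robo1 keep NLS above LacZ under both.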

How the data were processed

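Salmon 1.2.0 and the build GRCm38 are named in the submitters' processing notes. The authors started from stranded paired-end Truseq mRNA libraries, per the labels' protocols. Per transcript, the deposited tables give an estimated count and a TPM value, of which TPM was not used. The transcript set and Salmon's settings are not stated in the labels. Salmon divides reads among similar transcripts, so near-identical copies are uncertain. Estimated counts were summed to 35498 genes of GENCODE vM21 by transcript identifier (115977 of 116546 matched, with 0.121 to 0.165% of reads unmatched) and rounded. Genes at CPM of at least 1 in 2 libraries entered edgeR 4.0.16 (R 4.3.3; quasi-likelihood test), with TMM factors, robust spread, 1 group mean per group and Benjamini-Hochberg adjustment over all genes, called below 0.05. The main fit used the 5 t48 libraries. The t0 fit used the 5 t0 libraries and the interaction all 10. Scripts were tested on simulated data.

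CPM are on TMM library sizes and are not comparable between genes of different length. SE was derived from the test statistic. A floor of 3 reads per library bounds folds against 0 reads, and 1 to 3 reads give a ratio with an exact 95% counting interval. Named genes were the 12 largest called increases and decreases with mean log2 CPM of at least 1, no overlap and a proper symbol, up to 3 called members each way with the smallest p from each of 41 lists (857 entries, 663 tested, genes shared between lists counted in each), the 6 largest called interactions each way, and 13 genes always kept, of which Xist was not in the transcript set. The groups, members and lists were chosen with earlier results of these data known. Alternatives were DESeq2 1.42.0, library totals, other filters, effective length offsets, no robust spread, all 13 libraries, a stricter threshold of 0.01, leaving out each library and, for the interaction, the cell line block. Per the labels a number marks one line under both times. Departures from group means correlated across genes at 0.285, 0.601 and 0.581 between t48 and t0 in NLS lines 6, 7 and 16 and at 0.196 in LacZ. RefSeq promoter windows (GRCm38.p6) were matched by symbol, and a gene counted once if any of its windows held the motif.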

Additional observations from a re-analysis of the deposited data

Results flagged for a closer look

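The difference between NLS and LacZ lines changed between the t0 and t48 labels for the genes below, each called in the interaction test. The value is the log2 difference at t48 minus that at t0. It depends on the prior count where a group has 0 or nearly 0 reads, so its size is not read there.

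At most 0.432 CPM in NLS t0 and both LacZ groups, and present in NLS t48, were Spats2l (13.21), Adam23 (10.85), Zfp521 (10.31) and Vat1l (8.41). Robo1 (9.22) was at 1.73 and 2.25 CPM in LacZ at t0 and at 0 at t48. Setbp1 (8.65) reversed. On the other side, Ptx3 (-5.26), Gstk1 (-4.82) and Cacna1c (-4.25) had 0 LacZ reads at t0 and few at t48, so the gap to NLS shrank. Akr1c13 (-3.58) did likewise from 0.216 and 0.15 CPM in LacZ at t0. Oas1a (-3.49) was lower in NLS under both labels. Tspan7 (-4.21), a tetraspanin gene, was at 19.2, 20.4 and 20.4 CPM in NLS and 12 and 10.9 CPM in LacZ at t0, and at 5.24, 4.96 and 4.71 CPM and 53 and 52.8 CPM at t48.

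Another 15 named genes were called in opposite directions under the 2 labels. Higher at t48 and lower at t0 were Igfbp5 (7.19), Pmaip1 (5.40), Adam12 (2.56), Fat4 (2.32), Hoxb9 (1.24), Per2 (1.15), Vgll4 (0.80), Tcf4 (0.73) and Ccne1 (0.62). Lower at t48 and higher at t0 were Psmb8 (-2.75), Ntn4 (-1.66), Tap2 (-1.53), Gstp1 (-0.76), S100a4 (-0.70) and Ccng1 (-0.39). The t48 calls of Vgll4, Ccne1, Ccng1 and S100a4 were lost in at least 1 fit that left out a library, with adjusted p up to 0.265, 0.22, 0.173 and 0.104.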

How the results depend on the processing

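The t48 count of 5697 genes lay between 3986 and 5615 when each library was left out (the low end without LacZ line 10), where a lone LacZ library is assumed to vary like the NLS ones. It was 5271 with DESeq2, 5006 with effective length offsets, 6258 without a filter and 3954 at the stricter threshold. No called gene named here changed direction under these settings. The t0 count of 4740 lay between 2376 (without LacZ line 10) and 5699, and was 2604 without LacZ line 12. The interaction count of 2916 lay between 1025 (without LacZ line 10) and 3380, and was 1284 without LacZ line 12 and 1655 without NLS line 6. With the replicate block it was 5000. Library totals gave 1852 interactions towards higher and 1041 towards lower, against 1495 and 1421. No paired analysis was possible for NLS t48 against LacZ t48 because the 5 libraries are 5 different lines. Adcy10 was called by DESeq2 (adjusted p = 3.37e-05), without robust spread (0.0143) and without NLS line 16 (0.00545), and not in the other settings. Depth limits genes near 0: 3 reads per library correspond to 0.158 CPM in LacZ and 0.143 CPM in NLS.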

Other observations

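Smaller marker groups differed in a few members. Krt14, a basal keratinocyte keratin gene, was at 2.13, 1.01 and 2.82 CPM in NLS t48 and 0.109 and 0.303 CPM in LacZ t48 (log2 fold change 3.20, SE 0.61; 4.09 without LacZ line 12). Krt18, a keratin gene of simple epithelia, was at 0.0463, 0.0439 and 0 CPM against 2.51 and 1.06 CPM, a ratio of 55.8 towards LacZ (counting interval 14.9 to 470.4, from 2 NLS reads). Epcam and Krt5 were at 0 in all 5 libraries.

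Contractile genes were mixed, 6 higher and 5 lower of 16 (68.8% called, against 47.7% of all genes). The balance rested on the settings, with 4 higher and 7 lower without NLS line 16 and 6 higher and 2 lower with library totals. Cnn1, a smooth muscle calponin gene, was at 44.3, 34.4 and 47.9 CPM against 2.46 and 2.32 CPM (log2 fold change 4.14, SE 0.19), while Srf, the gene of the transcription factor that drives this group, was lower (-0.62). The heat shock gene Hspa1a was at 8.52, 9.48 and 8.89 CPM against 0 and 0.152 CPM, a ratio of 114 (38.8 to 555), and its near-identical neighbour Hspa1b at 16.6, 18 and 19 CPM against 11.8 and 7.73 CPM (0.88), so reads shared between the 2 copies make the split uncertain. Pdgfra, a platelet-derived growth factor receptor and fibroblast marker gene, was at 162, 202 and 129 CPM against 43.2 and 41.8 CPM (1.95, SE 0.22).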
